A study of Mus musculus with 6 samples.

Results

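Rap GTPases and the exchange factors that switch them on were followed in URE cells, a mouse leukaemia line, on arrays labelled shHLX and shControl. The 10 genes were chosen by name, as the Rap GTPase genes Rap1a, Rap1b, Rap2a and Rap2b and the exchange factor genes Rapgef1 to Rapgef6, with results of shHLX against shControl already known. A gene entered through each probe set whose platform annotation names that symbol alone. This gave 10 probe sets for 9 of the 10 genes, among 19938 genes measured by the same rule, and Rapgef4 was not analysed here. Because the same contrast was known when the genes were picked, their differences are given as descriptions, without p-values.

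The cells labelled shHLX carried a lentiviral hairpin directed against Hlx, a homeobox transcription factor gene, and those labelled shControl carried a hairpin against luciferase. Both vectors also encode a green fluorescent protein, and fluorescent cells were sorted before RNA was taken. Each group had 3 arrays. URE is known as a line from mice with a deleted upstream enhancer of the PU.1 gene, a background that both groups share, and a single line limits both groups alike as a model of leukaemia. The study asked what Hlx does in blood cell differentiation and tumour formation.

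Rap proteins are small GTPases related to Ras that are active when bound to GTP. Exchange factors load them with GTP and GTPase-activating proteins switch them off, and in blood cells active Rap1 is best known for turning integrins into their adhesive state. The exchange factors differ in what drives them: the protein of Rapgef1 is recruited by Crk adaptors, those of Rapgef3 and Rapgef4, also called Epac1 and Epac2, bind cyclic AMP directly, and those of Rapgef2 and Rapgef6 carry PDZ domains.

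Across the arrays, medians lay between 7.02 and 7.10 on the log2 scale. Arrays of the same group had Pearson correlations of 0.9978 to 0.9987 over all genes, and arrays of different groups 0.9942 to 0.9959. The Hlx probe set gave 10.08, 10.06 and 10.17 on the arrays labelled shHLX, against 10.21, 10.12 and 10.20 on the shControl arrays, so the targeted transcript was not distinguishable between the groups at this spread (exact two-sided permutation p = 0.2, where 0.1 is the smallest possible, limma adjusted p = 0.479). The direction of each comparison therefore rests on the labels. Of 10 haematopoietic markers Coro1a and Itgb2 were higher and Kit and Mpo lower (40% called by limma, against 6.18% of all genes). The mean log2 signal of the list was 9.71 to 9.80 on the arrays labelled shHLX and 9.89 to 9.93 on the shControl arrays. Ptprc (at most 6.14 on the arrays labelled shHLX and 6.05 in shControl) and Cd34 (at most 6.06 and 6.15) were dim, near the arrays' 25th percentile of signal of 5.74 to 5.78, and without detection values their presence could not be judged. None of 6 stromal, 5 lymphocyte and 5 erythroid and megakaryocyte markers passed limma (0, 0 and 1 had an unadjusted p under 0.05, and none passed when variances were not moderated). Mean log2 signals of these lists were 6.37 to 6.53, 5.87 to 5.93 and 6.76 to 6.87 on the arrays labelled shHLX. On the shControl arrays they were 6.44 to 6.56, 5.87 to 5.98 and 6.88 to 6.93. Whether such cells were present cannot be told from this lack of called differences.

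Rapgef3 was much lower on the arrays labelled shHLX, while Rap2a and Rapgef1 were slightly higher, and the other 6 measured genes lay below the threshold. In the limma fit over all genes, 2 members were thus past the threshold upwards and 1 downwards, where the fit called 6.18% of all genes, 3.75% upwards and 2.43% downwards. The groups did not overlap for 5 of the 9 genes, or 55.6%, against 26.2% of all genes. Nothing is read from these counts, since the contrast was known when the genes were picked. The median log2 difference was 0.06 over the 9 genes and -0.01 over all genes.

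The upstream sequences of the 3 genes past the threshold are shown as stretches where part of the control of transcription may lie, and control from elsewhere was not examined. They are the 250 bases before the annotated start, 5′ to 3′ on the gene's strand, from RefSeq on GRCm38.p6, in which 9 of the 10 genes had an entry. Capitals mark the GC box GGGCGG and the cyclic AMP response half-site TGACG on either strand.
Rapgef3, chr15:97767667-97767916, minus strand: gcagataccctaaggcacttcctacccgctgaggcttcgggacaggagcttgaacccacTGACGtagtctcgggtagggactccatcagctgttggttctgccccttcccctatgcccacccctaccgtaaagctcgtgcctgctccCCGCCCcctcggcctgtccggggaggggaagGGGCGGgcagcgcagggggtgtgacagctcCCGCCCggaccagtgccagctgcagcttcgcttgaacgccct
Rap2a, chr14:120478211-120478460, plus strand: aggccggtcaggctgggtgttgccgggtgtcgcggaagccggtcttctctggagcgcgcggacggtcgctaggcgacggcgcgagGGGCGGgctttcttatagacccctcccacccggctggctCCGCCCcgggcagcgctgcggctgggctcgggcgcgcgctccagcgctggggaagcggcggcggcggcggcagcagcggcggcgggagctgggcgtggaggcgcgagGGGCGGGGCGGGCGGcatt
Rapgef1, chr2:29619470-29619719, plus strand: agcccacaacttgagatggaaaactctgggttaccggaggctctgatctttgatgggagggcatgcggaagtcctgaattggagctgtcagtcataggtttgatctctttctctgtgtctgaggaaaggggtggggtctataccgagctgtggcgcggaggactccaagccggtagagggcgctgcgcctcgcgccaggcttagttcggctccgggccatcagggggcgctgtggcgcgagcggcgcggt

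G and C make up 66.0% of the stretch of Rapgef3, 78.0% of that of Rap2a and 60.8% of that of Rapgef1. Over 32851 windows of this length the median is 52.4% and the upper quartile 61.2%. Rapgef3 and Rap2a thus lie above the upper quartile, and Rapgef1 lies between the median and the upper quartile. Rapgef3 holds 3 GC boxes and 1 half-site, Rap2a holds 5 GC boxes, of which the last 3 overlap each other, and Rapgef1 holds neither motif. A GC box is found in 32.7% of all windows and a half-site in 17.8%. The homeobox core TAAT, searched on both strands, is in none of the 3 stretches and in 54.9% of all windows. The ETS core GGAA occurs 3, 2 and 3 times in Rapgef3, Rap2a and Rapgef1, on both strands, and in 93.4% of all windows. These are matches of letters in a window and say nothing about binding.

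Among the GTPase genes, Rap2a differed most. Its protein belongs to the Rap2 branch, which acts through kinases of the TNIK and MINK1 family. Rap2a gave 8.92, 8.98 and 8.86 log2 signal on the arrays labelled shHLX, against 8.57, 8.61 and 8.64 on the shControl arrays. All 3 values labelled shHLX lay above all 3 shControl values. The difference of 0.31 (95% confidence interval 0.20 to 0.42) corresponds to 1.24-fold, and it stayed between 0.28 and 0.34 whichever array was left out.

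Rap2b, whose protein is a close relative of that of Rap2a, differed little in signal between the groups. It gave 8.33, 8.40 and 8.41 on the arrays labelled shHLX, against 8.41, 8.38 and 8.37 on the shControl arrays, and the groups overlapped. The difference was -0.01 (95% confidence interval -0.11 to 0.09). The third Rap2 gene, Rap2c, is no member but was listed with the wider Rap genes. It gave 8.98 on each of the 3 arrays labelled shHLX, against 9.04, 9.02 and 8.93 on the shControl arrays, a difference of -0.02 (95% confidence interval -0.12 to 0.09, limma adjusted p = 0.888).

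The Rap1 genes, whose proteins drive integrin activation, differed by little. Rap1a gave 11.35, 11.34 and 11.45 on the arrays labelled shHLX, against 11.48, 11.40 and 11.46 on the shControl arrays. Rap1b gave 12.20, 12.23 and 12.27 on the arrays labelled shHLX, against 12.20, 12.16 and 12.16 on the shControl arrays. In both genes the groups overlapped. The differences were -0.07 for Rap1a (95% confidence interval -0.18 to 0.05) and 0.06 for Rap1b (-0.04 to 0.15), which puts the signal labelled shHLX at 88.2% to 103% and 97.2% to 111% of shControl. The intervals do not show that levels were equal.

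**Figure D1:**
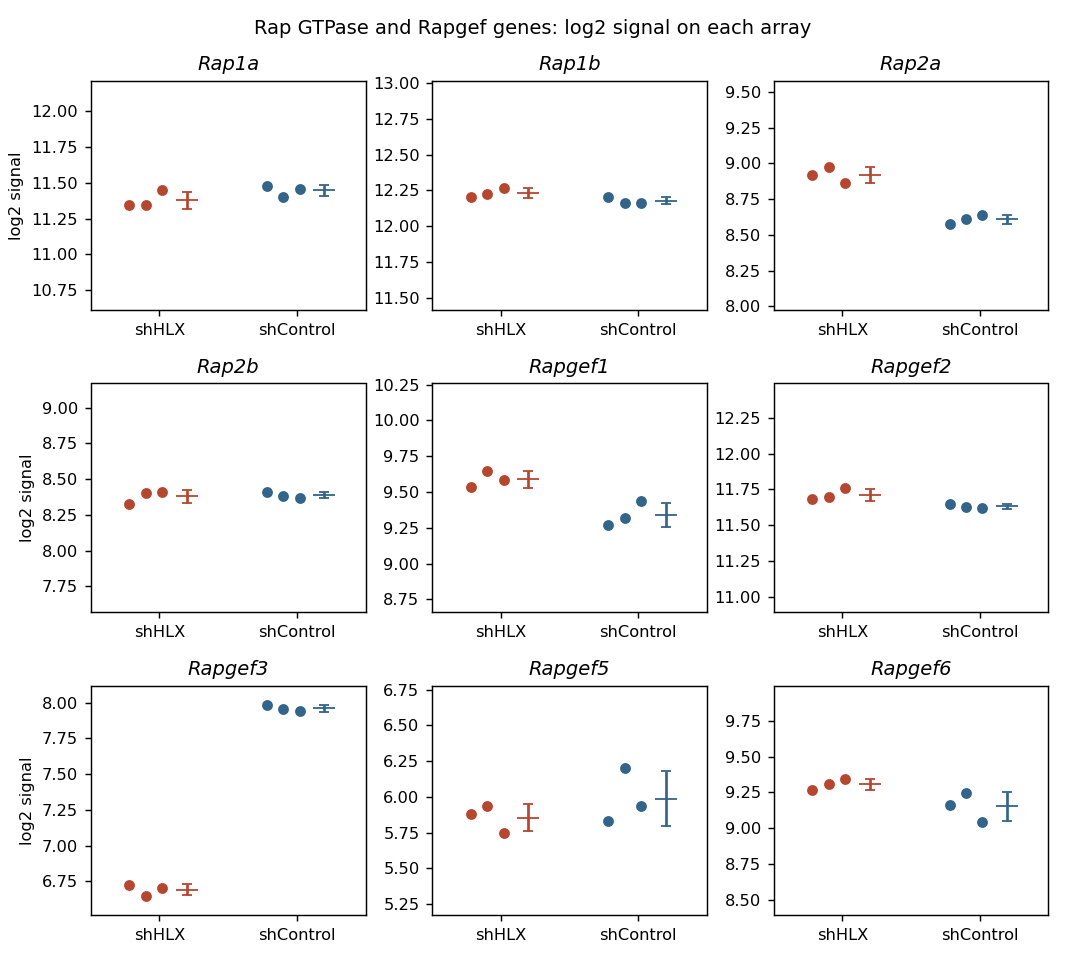
Log2 signal of the 9 measured genes on each of the 6 arrays, 1 panel per gene, with shHLX arrays left (red) and shControl arrays right (blue), bars giving mean and SD (n = 3 each), and every axis spanning the same height. Rapgef3 separates the groups by over a log2 unit, Rap2a and Rapgef1 by less, and the other panels show groups that overlap or lie close together.

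Of the exchange factor genes, Rapgef3 differed most. It gave 6.72, 6.65 and 6.70 log2 signal on the arrays labelled shHLX, against 7.98, 7.95 and 7.94 on the shControl arrays. The gap between the groups was many times the spread within them (SD 0.040 and 0.023, n = 3 each). The log2 difference was -1.27 (95% confidence interval -1.37 to -1.17), so that the signal on the arrays labelled shHLX was 41.5% of that in shControl (38.8% to 44.5%). It lay between -1.28 and -1.25 whichever array was left out. In bulk RNA of this kind, fewer expressing cells and less RNA per cell cannot be told apart. No detection values were used, so it is unknown whether the lower signal is still above background, and the fold may understate the change in RNA.

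Rapgef1 was the other exchange factor gene past the threshold, in the upward direction. Its main probe set (10470705) gave 9.53, 9.65 and 9.58 on the arrays labelled shHLX, against 9.27, 9.32 and 9.44 on the shControl arrays, and the groups did not overlap. The difference was 0.25 (95% confidence interval 0.11 to 0.38), or 1.19-fold, and ranged from 0.21 to 0.29 as single arrays were left out. Rapgef1 was past the threshold with all arrays or without shControl 3, and fell short without any of the other 5 arrays. A second probe set (10481366) pointed the other way, with 7.93, 8.18 and 7.71 on the arrays labelled shHLX, against 8.06, 8.12 and 8.12 on the shControl arrays. There the groups overlapped, with a difference of -0.16 (95% confidence interval -0.41 to 0.08), and the mean of both probe sets differed by 0.04. The probe sets of Rapgef1 therefore disagree in sign.

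The PDZ-domain exchange factor genes were each slightly higher in signal without passing the threshold. Rapgef6 gave 9.27, 9.31 and 9.34 on the arrays labelled shHLX, against 9.17, 9.25 and 9.04 on the shControl arrays. Rapgef2 gave 11.68, 11.70 and 11.76 on the arrays labelled shHLX, against 11.65, 11.62 and 11.62 on the shControl arrays. Neither gene's groups overlapped. The differences were 0.15 for Rapgef6 (95% confidence interval 0.02 to 0.29) and 0.08 for Rapgef2 (-0.02 to 0.18). Rapgef5, which encodes a further Rap exchange factor, varied more between arrays of a group (SD 0.096 and 0.19, n = 3 each), with 5.88, 5.94 and 5.75 on the arrays labelled shHLX, against 5.83, 6.20 and 5.94 on the shControl arrays. Its groups overlapped, and the difference of -0.13 (95% confidence interval -0.36 to 0.09) moved between -0.21 and -0.03 as single arrays were left out.

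**Figure D2:**
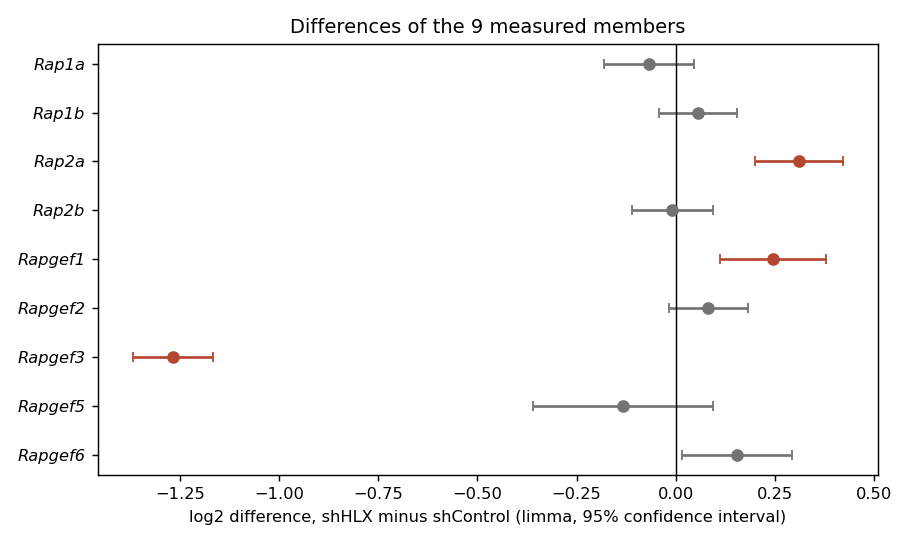
Log2 difference, shHLX minus shControl, of the 9 measured genes with 95% confidence intervals from limma, with genes past the threshold in red and the others in grey. Rapgef3 lies at -1.27, Rap2a at 0.31 and Rapgef1 at 0.25, and the other 6 lie between -0.13 and 0.15.

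Beside Rapgef3 on the chromosome, 2 of 6 neighbouring genes also fell, where limma called 2.43% of all genes lower. The neighbours were looked up after the values of Rapgef3 were seen. In the gene order of GRCm38.p6, used only for neighbourhood, Slc48a1, a haem transporter gene, and Hdac7, a class IIa histone deacetylase gene, follow Rapgef3 on one side. Hdac7 gave 8.90, 8.79 and 8.83 on the arrays labelled shHLX, against 9.95, 9.96 and 9.94 on the shControl arrays. It fell by 1.11 on the log2 scale (95% confidence interval of the difference -1.22 to -1.01, limma adjusted p = 1.02e-05). Slc48a1 fell by 0.34 on the log2 scale (-0.43 to -0.24, limma adjusted p = 0.00294), with 12.41, 12.42 and 12.39 on the arrays labelled shHLX and 12.70, 12.76 and 12.76 on the shControl arrays. In both genes all values labelled shHLX lay below all shControl values.

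The remaining 4 of the 6 nearest protein-coding neighbours did not pass. Of all 6, 4 had an unadjusted p under 0.05 and 2 passed when variances were not moderated. Endou (-0.26, limma adjusted p = 0.0909), Rpap3 (-0.24, 0.0604), Vdr (-0.17, 0.278) and Pced1b (-0.02, 0.79) had negative log2 differences. Rpap3 passed without shHLX 3 (adjusted p = 0.049) and Endou without shHLX 2 (0.0161). Hdac7 and Slc48a1 passed in each fit that omitted 1 array. Beside Rap2a, all 6 nearest neighbours were measured, with differences from -0.10 to 0.09, and none passed limma (adjusted p 0.253 to 0.988, with 1 below 0.05 before adjustment and 0 passing when variances were not moderated). Beside Rapgef1, 3 of 6 were measured, Med27, Trub2 and Gm13547, and none passed (0.321 to 0.981, with 0 below 0.05 before adjustment and 0 without moderation).

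**Figure D3:**
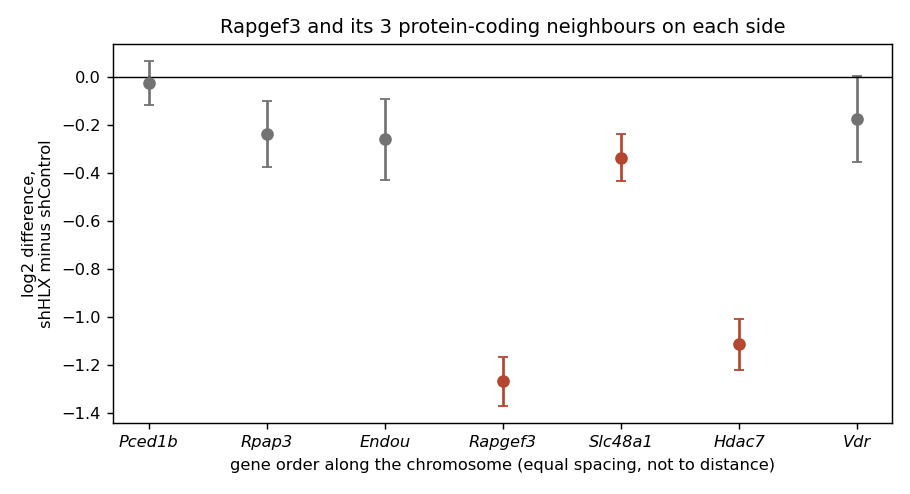
Log2 difference, shHLX minus shControl, with 95% confidence intervals, for Rapgef3 and the 3 nearest protein-coding genes on each side in chromosomal order, with genes past the limma threshold in red. Rapgef3 (-1.27) and Hdac7 (-1.11) are the lowest, Slc48a1 (-0.34) lies between them in position, and Pced1b is close to 0.

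The 5 genes whose pattern over the 6 arrays was most like that of Rapgef3 were Zbtb20, Ms4a3, Hdac7, Egr1 and Rasgef1a, with Pearson correlations from 0.9996 down to 0.9986. These values describe mainly the split between the groups, which the arrays of each gene share. The log2 differences were -1.19 for the zinc finger gene Zbtb20, -3.45 for Ms4a3 and -1.10 for the immediate early gene Egr1. Rasgef1a encodes a protein whose human form is known as an exchange factor for Rap2. It gave 8.82, 8.76 and 8.85 on the arrays labelled shHLX, against 9.55, 9.54 and 9.51 on the shControl arrays. Its log2 difference was -0.72 (95% confidence interval -0.82 to -0.62). Rasgef1a was in none of the lists of Rap genes. All 5 genes were picked for following Rapgef3 over these same arrays. Their lower signal on the arrays labelled shHLX therefore followed from the choice and is no test.

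Beyond the members, 88 genes of the Rap cycle or around it were listed by role and 80 were measured. The lists were also chosen with earlier results of these data known, so the shares and p-values of their genes are descriptions. These wider Rap genes include adaptor, cyclic AMP and prenylation genes that also serve other pathways. Of these, 2 rose and 6 fell (limma, adjusted over all genes), or 10% against 6.18% of all genes, and the median log2 difference was 0.00 against -0.01 over all genes. The split by direction depended on the setting: 4 were higher and 6 lower after a second quantile normalization, 4 and 5 with arrays centred on their medians, 5 and 5 above the 25th percentile of signal, and 6 and 7 with an intensity trend. The count fell to 5 without shHLX 1 or without shControl 3, and was 6 or 7 without each of the others.

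Among 18 genes of Rap effectors in adhesion, Arap3 fell and Tiam1 rose, or 11.1% called against 6.18% of all genes. The Arap3 protein is known as an effector that binds active Rap. Arap3 gave 7.72, 7.72 and 7.82 on the arrays labelled shHLX, against 8.59, 8.72 and 8.57 on the shControl arrays, a fall to 54.7% of shControl (95% confidence interval 49.9% to 60.0%, limma adjusted p = 0.000106). All 3 values labelled shHLX lay below all shControl values, and Arap3 passed whichever array was left out. Tiam1, a Rac exchange factor gene whose protein can bind Rap1, was higher by 0.23 (0.12 to 0.34, limma adjusted p = 0.0287), but was not called in any fit that omitted 1 array (adjusted p 0.0518 to 0.118).

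Of the 18 effectors in adhesion, 4 had an unadjusted p under 0.05 in limma and 1 passed when variances were not moderated. Apbb1ip and Rassf5, among the genes that carry the Rap1 signal to integrins in blood cells, did not pass. Apbb1ip, which encodes the talin-binding adaptor RIAM, differed by -0.07 (95% confidence interval -0.17 to 0.03, limma adjusted p = 0.449), and Rassf5, which encodes the effector RAPL, by -0.02 (-0.16 to 0.12, 0.919). Each pair of groups overlapped.

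Rapgef3 and Arap3 are both known from endothelial cells, so 14 endothelial markers were looked up after those values were seen. Pecam1 rose by 1.87 on the log2 scale and Cdh5 fell by 2.68, and the other 12 did not pass. Limma thus called 14.3% of the list, against 6.18% of all genes. In all, 12 of the 14 had negative differences and 4 had an unadjusted p under 0.05. Among all 19938 genes, 10884 had negative differences and 3861 an unadjusted p under 0.05. The mean log2 signal of the list, which pools these opposite changes, was 7.10 to 7.20 on the arrays labelled shHLX and 7.25 to 7.32 on the shControl arrays. The part of such cells in the results for Rapgef3 and Arap3 was not tested.

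Among 8 effectors in kinase signalling, 2 fell by small amounts, or 25% called against 6.18% of all genes. The list is too short to compare these shares. Ralgds, a Ral exchange factor gene whose protein binds Ras and Rap, differed by -0.24 (95% confidence interval -0.33 to -0.14, limma adjusted p = 0.0126), and was lost without shHLX 1 (adjusted p = 0.0618), shControl 2 (0.0527) or shControl 3 (0.0602). Mink1, the gene of a kinase bound by Rap2, gave 9.43, 9.44 and 9.42 on the arrays labelled shHLX, against 9.62, 9.59 and 9.62 on the shControl arrays, a difference of -0.18 (-0.27 to -0.09, limma adjusted p = 0.0385). Its call was lost whichever array was left out (adjusted p 0.0904 to 0.156) and with arrays centred on their medians (0.154).

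Upstream of Rapgef1, 2 of 8 adaptor genes fell, or 25% called against 6.18% of all genes, and nothing is read from so few genes. The docking protein gene Dok2 gave 8.27, 8.35 and 8.31 on the arrays labelled shHLX, against 8.75, 8.78 and 8.87 on the shControl arrays, or 71.4% of shControl (95% confidence interval 65.9% to 77.2%, limma adjusted p = 0.000946). The docking protein gene Gab1 was at 76.7% (70.8% to 83.1%, limma adjusted p = 0.00348). Both passed in each of the 6 fits that omitted 1 array. Crk and Crkl, whose proteins bring the Rapgef1 protein to the membrane, were slightly higher without passing, by 0.10 (0.00 to 0.21, limma adjusted p = 0.25) and 0.15 (0.05 to 0.26, 0.107), and neither gene's groups overlapped.

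Of 23 genes that make, sense or remove cyclic AMP, the messenger that activates the Rapgef3 protein, Ptger2 rose and Pde3b fell. That is 8.7% of the list called, near the 6.18% of all genes. Ptger2, which encodes a prostaglandin E2 receptor that raises cyclic AMP, gave 7.80, 7.77 and 7.79 on the arrays labelled shHLX, against 7.49, 7.45 and 7.51 on the shControl arrays, which is 1.24 times the control signal (interval 1.16 to 1.32 at 95%, limma adjusted p = 0.00423). Pde3b, a phosphodiesterase gene, gave 5.59, 5.71 and 5.91 on the arrays labelled shHLX, against 6.36, 6.22 and 6.43 on the shControl arrays, or 65.9% of shControl (57.1% to 76.1%, limma adjusted p = 0.00645). In each gene the groups did not overlap and the call held whichever array was left out. Pde3b did not pass when variances were not moderated (adjusted p = 0.0849). On the arrays labelled shHLX its signal was dim, near the arrays' 25th percentile of 5.74 to 5.78, and could not be set against background.

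The genes that switch Rap off showed no called change. Of 8 measured genes of Rap GTPase-activating proteins none passed limma, and 0 passed when variances were not moderated. An unadjusted p under 0.05 was seen for 4 of the 8, and for 3861 of all 19938 genes. Rap1gap gave 7.04, 7.11 and 6.89 on the arrays labelled shHLX, against 7.19, 7.15 and 7.26 on the shControl arrays, a difference of -0.19 (95% confidence interval -0.34 to -0.04, limma adjusted p = 0.154). Sipa1, whose loss in mice is known to lead to a myeloproliferative disease, differed by -0.09 (-0.20 to 0.02, limma adjusted p = 0.332).

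The lists of other activators and of Rap processing held no called gene either. None of 7 other exchange factor genes passed limma, whether or not variances were moderated, with 0 below 0.05 before adjustment, and Rasgrp2, which encodes the calcium-driven Rap1 exchange factor of platelets and leukocytes, differed by -0.07 (95% confidence interval -0.16 to 0.03, limma adjusted p = 0.452). None of 6 prenylation and processing genes passed, whether or not variances were moderated, with 1 below 0.05 before adjustment. Of the remaining list of 2 genes, Rap2c is given above and Rap1gds1, the gene of a Rap-binding chaperone, differed by 0.17 (0.08 to 0.27, limma adjusted p = 0.0516) and passed when variances were not moderated (0.0263).

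**Figure D4:**
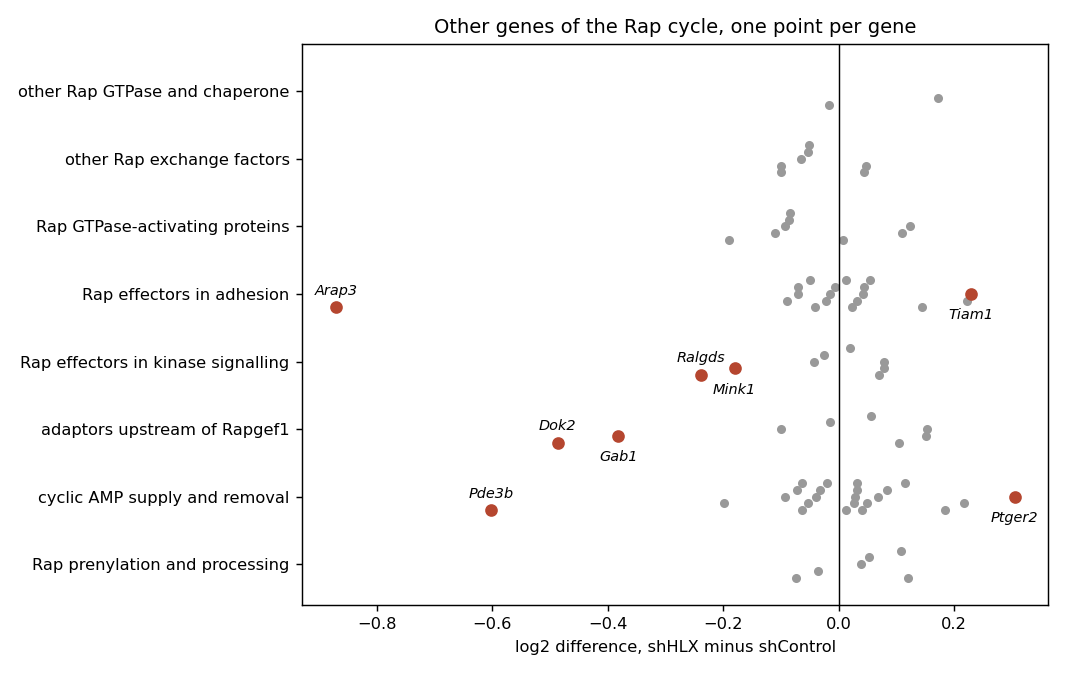
Log2 difference, shHLX minus shControl, of the 80 measured genes of the wider Rap lists, 1 point per gene in rows by role. Vertical offsets are only for legibility, and the 8 genes past the limma threshold are named, with red points. Arap3 (-0.87) and Pde3b (-0.60) are the lowest, Ptger2 (0.30) is the highest, and the rows of GTPase-activating proteins, other exchange factors and prenylation hold no red point.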

How the data were processed

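The authors deposited log2 signals per probe set, 1 column for each of the 6 arrays. The submitters' processing notes name RMA and Affymetrix Power Tools 1.178, and per the labels' protocols the RNA was amplified before labelling. The genome build and the grouping of probes into sets are not given in the labels or notes used here.

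Of 35556 probe sets, 21789 name 1 gene symbol, 1621 name several and 12146 are not listed in the platform annotation. The single-symbol probe set with the highest mean stood for each gene, giving 19938 genes with no filter on signal. The comparison of shHLX with shControl used limma 3.58.1 (R 4.3.3; lmFit and eBayes, two-sided, no covariates), with Benjamini-Hochberg adjustment over all genes, a threshold of 0.05 and 95% confidence intervals. The code was tested on simulated data. Figures used matplotlib 3.10.9 in Python 3.11.15.

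The members and all lists were chosen with earlier results of these data known. Named genes were the members, every called gene of the wider Rap lists, Rap2c, Sipa1, Rap1gap, Rasgrp2, Apbb1ip, Rassf5, Crk, Crkl and Hlx, and the 5 genes most correlated with the member that differed most. Others were named after their values were seen. Alternatives were a second quantile normalization, median centring, a filter at the 25th percentile of signal, an intensity trend, no variance moderation, the mean of or every probe set of a gene, omission of each array in turn, and a block for the replicate number. No label states that replicates came from separate cultures, so the p-values reflect the spread among these samples only, and that spread may be technical. The number of arrays limits the precision.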

Additional observations from a re-analysis of the deposited data

How the results depend on the processing

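The count of genes called, 1233 in the main setting, was 2261 with variances modelled with an intensity trend, 800 with the replicate number as a block, and 698 to 901 with 1 array left out. For the wider Rap genes, 8 in the main setting, the counts were 13 with the trend, 5 with the block and 5 to 7 with 1 array left out. The count of members past the threshold, 3 in the main setting, was 2 or 3 in every alternative. Rapgef3 and Rap2a were past it in each. Rapgef1 was not after a second quantile normalization, without variance moderation, with the mean of probe sets, with every probe set tested or with the block. These counts lend the members no support, since the contrast was known when they were picked. With the block, Tiam1 (adjusted p = 0.0933), Ralgds (0.0593) and Mink1 (0.132) were lost, and no other wider Rap gene. Deviations from the group means had correlations of -0.17, 0.129 and -0.152 between same-numbered arrays of the 2 groups. Between arrays of different number they ran from -0.25 to 0.344. With 3 arrays centred on their mean, these correlations are tied to each other and cannot settle whether the numbers pair the samples. Without variance moderation Tiam1 (0.0626) was lost as well as Pde3b, and with the trend Crkl (0.0141), Rap1gds1 (0.0153) and the neighbours Rpap3 (0.0328) and Stk24 (0.0446) passed. Above the 25th percentile of signal Rap1gds1 (0.0259) and Rpap3 (0.0371) passed, while Pde3b and Rapgef5 were among the genes that this filter removed. The cause of these changes was not tested. No named gene reversed its direction past the threshold. Without detection values, dim probe sets such as those of Rapgef5 and Pde3b cannot be set against background.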

Other observations

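A further probe set (10563641) is annotated to both Rap1a and Gm9392 and entered no comparison, since its signal cannot be given to either gene. It read 11.09, 11.15 and 11.17 on the arrays labelled shHLX, against 11.27, 11.15 and 11.20 on the shControl arrays, a log2 difference of -0.07.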
